A study of Arabidopsis thaliana with 12 samples.

Results

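The 9 genes described here encode pentatricopeptide repeat (PPR) proteins of Arabidopsis thaliana: AT5G39980, AT3G22150, AT4G14050, OTP70, AT3G26630, AT4G21170, OTP85, AT1G31790 and AT3G49740. Each had 1 array feature that the platform annotation assigns to no other gene, and they make up 9 of the 691 genes with such a feature and of the 3438 genes or features fitted. They were picked by name when differences between pam46 and WT on these arrays were already known, so their differences between the groups are given as a description. Calls of the fit over all features are stated for them as counts only, with no p-value, and support nothing. The groups were pam46, a mutant in ecotype Columbia 0 described as altered in photosynthesis with a defect in an unknown protein, and WT of the same ecotype. Total RNA of 6 samples was measured in each group, numbered 1 to 6. The sources used here do not state the tissue, age, growth conditions, allele or mutated gene, and nothing says whether the samples came from separate plants.

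PPR proteins are encoded in the nucleus and mostly imported into chloroplasts or mitochondria. Their tandem repeats bind single-stranded RNA in a sequence-specific way, and different members take part in splicing, stabilising, cleaving or translating organelle transcripts. The P class has mainly canonical repeats, while many members of the PLS class, which mixes repeat types, serve in C-to-U RNA editing. In leaves many PPR proteins act on plastid transcripts of the photosynthetic apparatus or of the plastid's own polymerase and ribosome.

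Values are intensities on a linear scale as deposited, from 0 to a cap of 100, and the fitted values are log2 intensities after quantile normalization. Summed intensity per sample overlapped between the groups, at 3297 to 3561 in pam46 and 3290 to 3644 in WT, while the median intensity was 0.199 to 0.226 in pam46 and 0.296 to 0.341 in WT. Because of this gap, fold changes depended on the choice of scaling, by amounts that differed between genes. From values as deposited to quantile-normalized values, the log2 fold change of OTP85 went from 0.22 to 0.81. That of AT4G14050 went only from -1.05 to -1.07. Over all features the median log2 fold change, pam46 minus WT, was -0.36 without scaling and -0.34 after scaling to equal sums. It was 0.09 after scaling to equal medians, and quantile normalization sets it near 0. The limma fit called 1413 of 3438 genes or features at an adjusted p under 0.05 (41.1%), 669 higher and 744 lower in pam46. Without scaling the split was 373 higher and 1301 lower, scaling to equal sums gave 382 higher and 1274 lower, and scaling to equal medians gave 899 higher and 642 lower. Samples with consecutive numbers deviated together, and with numbers 1 and 2, 3 and 4, and 5 and 6 averaged, 587 were called (17.1%).

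Among the 9 PPR genes, 6 had a higher and 3 a lower mean log2 intensity in pam46 after quantile normalization. The fit called 8 of them, 5 as higher (19.5% of all features were called in that direction) and 3 as lower (21.6%), and since the genes were chosen on this contrast, nothing is read from these counts. The member calls moved with the scaling, as did those over all features. As deposited 2 members were called higher and 4 lower (373 and 1301 of all features, 48.7% called). For equal sums it was 2 higher and 3 lower (382 and 1274, 48.2%). For equal medians it was 6 higher and 1 lower (899 and 642, 44.8%). With neighbouring features subtracted it was 2 higher and 3 lower (770 and 798, 45.6%). Their median log2 fold change was 0.50, and it was 0.10 on the values as deposited. With consecutive numbers averaged, 3 of the 9 were called, AT3G22150, AT4G14050 and OTP70 (17.1% of all features), and with the sample number as a block on these averages AT3G22150 alone was called (20.2%). No sample of any of the 9 stood at the floor used before taking logs, so none of the fold changes was bounded by it. A difference in a whole-sample RNA measurement cannot tell fewer cells of a type apart from less transcript per cell.

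**Figure D1:**
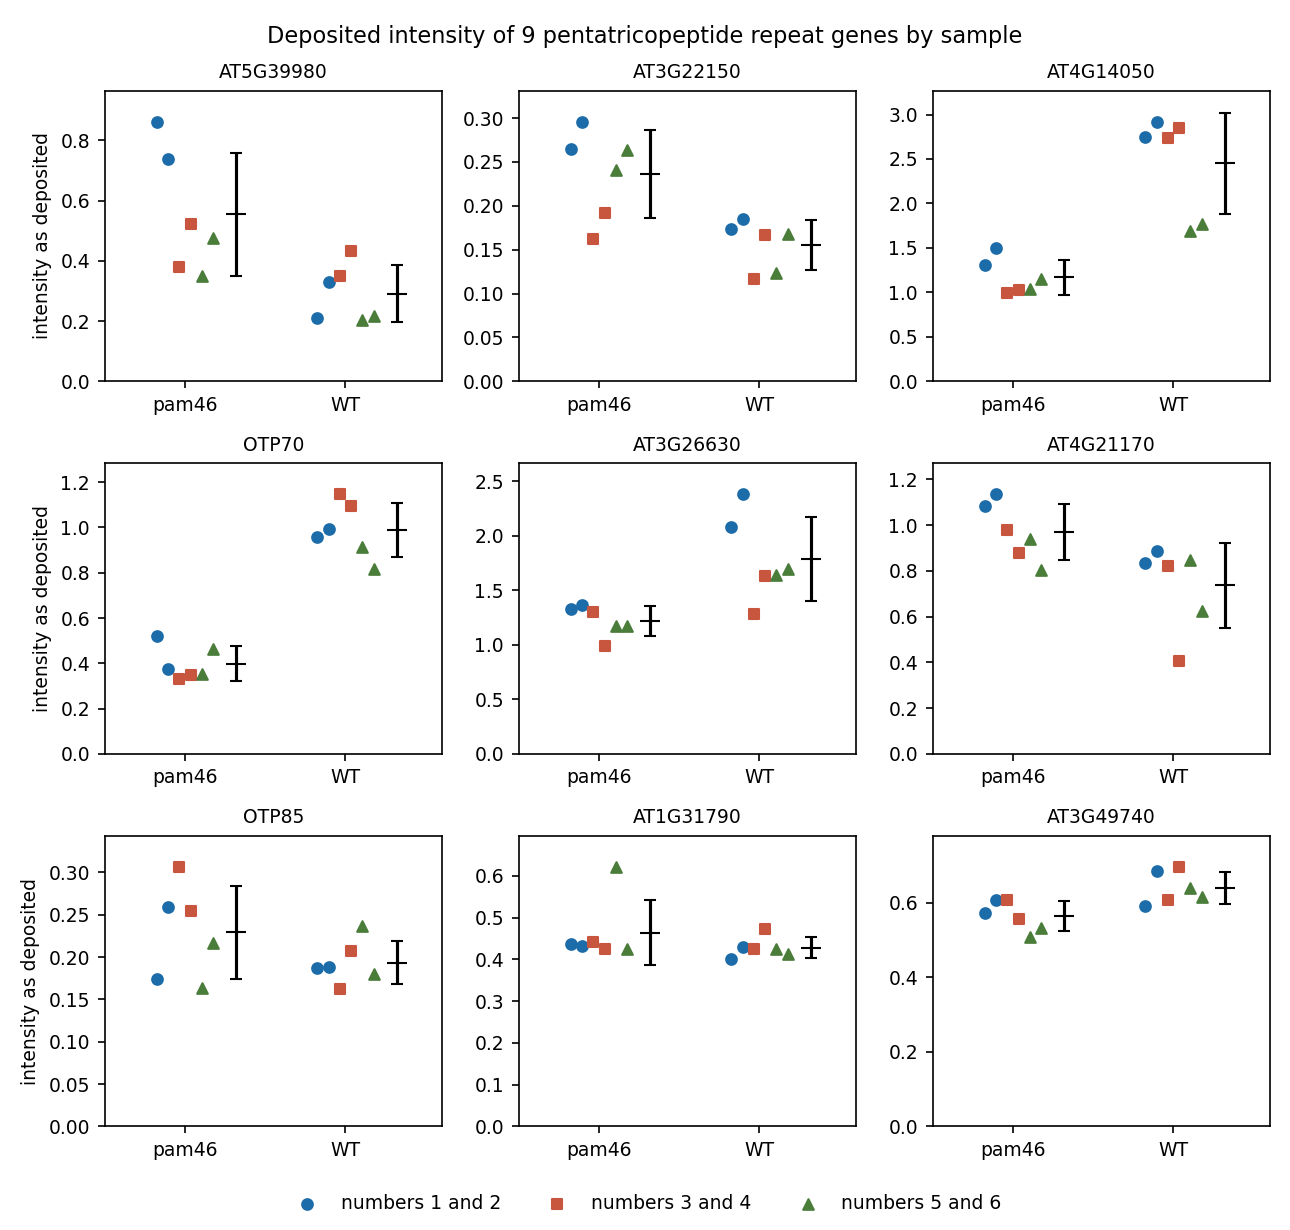
Intensity as deposited (linear scale) of each of the 9 PPR genes in 6 pam46 and 6 WT samples. Symbols show sample numbers, and the black bar beside each group is its mean ± SD. The pam46 and WT samples are fully apart for AT4G14050 and OTP70, both lower in pam46, and the groups overlap for the other 7.

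Of the members known for splicing in chloroplasts, AT5G39980 was higher and OTP70 lower in pam46. AT5G39980, known as PDM3, is a chloroplast protein needed for the splicing of several group II introns of plastid transcripts. Its deposited intensity in pam46 was 0.351 at the lowest, 0.499 at the median and 0.862 at the highest, against 0.202, 0.274 and 0.433 in WT. The groups overlapped, since pam46 samples 3 and 5 lay below WT sample 4, and the highest pam46 values were those of samples 1 and 2. Its mean was 0.555 ± 0.204 in pam46 and 0.291 ± 0.0950 in WT (SD, n = 6 each), a ratio of 1.91 on the deposited scale. After quantile normalization the groups no longer overlapped, with pam46 above WT and a log2 fold change of 1.37 ± 0.30 (SE). This was the largest absolute log2 fold change of the 9 members on the quantile-normalized scale. On the values as deposited OTP70 had the largest, at -1.32, against 0.92 for AT5G39980. The SE given for each gene takes the samples as independent, although consecutive numbers deviated together. For AT5G39980 it was 0.41 with consecutive numbers averaged and 0.36 with a random block for them. With the sample number as a block it was 0.25.

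OTP70 is a chloroplast protein known from the splicing of the intron in rpoC1, which encodes a subunit of the plastid RNA polymerase. Its deposited intensity in pam46 was 0.332 at the lowest, 0.364 at the median and 0.522 at the highest, against 0.819, 0.975 and 1.15 in WT. The groups did not overlap, and the highest pam46 sample, number 1, stayed below the lowest WT sample, number 6. The mean was 0.399 ± 0.0767 in pam46 and 0.988 ± 0.120 in WT (SD, n = 6 each), 2.48-fold lower in pam46. Its log2 fold change was -1.04 ± 0.13 (SE) after quantile normalization. Under the 23 alternative treatments it ran from -1.32 to -0.56, though blocks and averaging of numbers cannot change it.

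Of the members known for RNA editing, AT4G14050 was lower, and AT3G22150 and OTP85 were higher in pam46. AT4G14050, known as MEF35, is an editing factor of mitochondrial transcripts. Its deposited intensity in pam46 was 0.989 at the lowest, 1.09 at the median and 1.50 at the highest, against 1.69, 2.74 and 2.92 in WT. All 6 pam46 samples lay below all 6 WT samples. Within WT the samples split by number: samples 5 and 6 were at 1.69 and 1.77, while samples 1 to 4 were at 2.73 to 2.92. The mean was 1.17 ± 0.198 in pam46 and 2.45 ± 0.564 in WT (SD, n = 6 each), 2.10-fold lower in pam46, and the log2 fold change after quantile normalization was -1.07 ± 0.17 (SE). With equal medians it was -0.49.

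AT3G22150, known as AEF1 or MPR25, has been linked to editing of atpF in plastids and of nad5 in mitochondria. Its deposited intensity in pam46 was 0.162 at the lowest, 0.252 at the median and 0.296 at the highest, against 0.116, 0.167 and 0.184 in WT. Only pam46 sample 3 lay inside the WT range on this scale; sample 4 was next above it at 0.191. The mean was 0.236 ± 0.0505 in pam46 and 0.155 ± 0.0284 in WT (SD, n = 6 each), a ratio of 1.52. The log2 fold change was 1.27 ± 0.22 (SE) after quantile normalization, where the groups did not overlap, and 0.60 on the values as deposited.

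OTP85 is known for editing a site in plastid ndhD, which encodes a subunit of the NDH complex. Its deposited intensity in pam46 was 0.163 at the lowest, 0.236 at the median and 0.306 at the highest, against 0.162, 0.187 and 0.237 in WT. The ranges overlapped, with pam46 samples 1 and 5 below the WT median and pam46 samples 2, 3 and 4 above every WT sample. The mean was 0.229 ± 0.0547 in pam46 and 0.193 ± 0.0258 in WT (SD, n = 6 each), a ratio of 1.18. The log2 fold change was 0.81 ± 0.17 (SE) after quantile normalization, 0.78 with equal medians and 0.22 on the values as deposited. The deposited means of OTP85 differed by less than the SD of the pam46 samples.

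For the other 4 members no role is stated here, and their organelle is not given in the sources used. AT4G21170 was higher in pam46, with deposited intensities of 0.805 at the lowest, 0.961 at the median and 1.13 at the highest, against 0.404, 0.829 and 0.886 in WT. WT sample 4 was the lowest of all 12, and pam46 samples 4 and 6 lay within the WT range. The log2 fold change was 0.63 ± 0.19 (SE) after quantile normalization, 0.46 without WT sample 4 and 0.998 with equal medians.

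AT3G26630 was lower in pam46, with deposited intensities of 0.991 at the lowest, 1.24 at the median and 1.37 at the highest, against 1.28, 1.67 and 2.38 in WT. WT samples 1 and 2 were the highest at 2.08 and 2.38, and WT sample 3 was the single WT sample inside the pam46 range. The log2 fold change was -0.55 ± 0.12 (SE) after quantile normalization and 0.03 with equal medians. The gene is also listed on 1 feature that carries several genes, which was not used.

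AT1G31790 and AT3G49740 had the smallest absolute log2 fold changes of the 9 after quantile normalization and without scaling, but not with equal medians, where AT3G26630 had the smallest, or with neighbours subtracted, where OTP85 was below AT3G49740. AT1G31790 had deposited intensities of 0.425 at the lowest, 0.435 at the median and 0.622 at the highest in pam46, against 0.401, 0.426 and 0.474 in WT. The groups overlapped, and pam46 sample 5 stood alone above the others. Its log2 fold change was 0.50 ± 0.11 (SE) after quantile normalization and 0.10 on the values as deposited.

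AT3G49740 had deposited intensities of 0.510 at the lowest, 0.565 at the median and 0.608 at the highest in pam46, against 0.590, 0.629 and 0.697 in WT. It was lower in pam46 on this scale in all 6 same-number comparisons, while its log2 fold change after quantile normalization was 0.11 ± 0.08 (SE). On the values as deposited it was -0.18, which is above the median of -0.36 over all features on that scale.

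**Figure D2:**
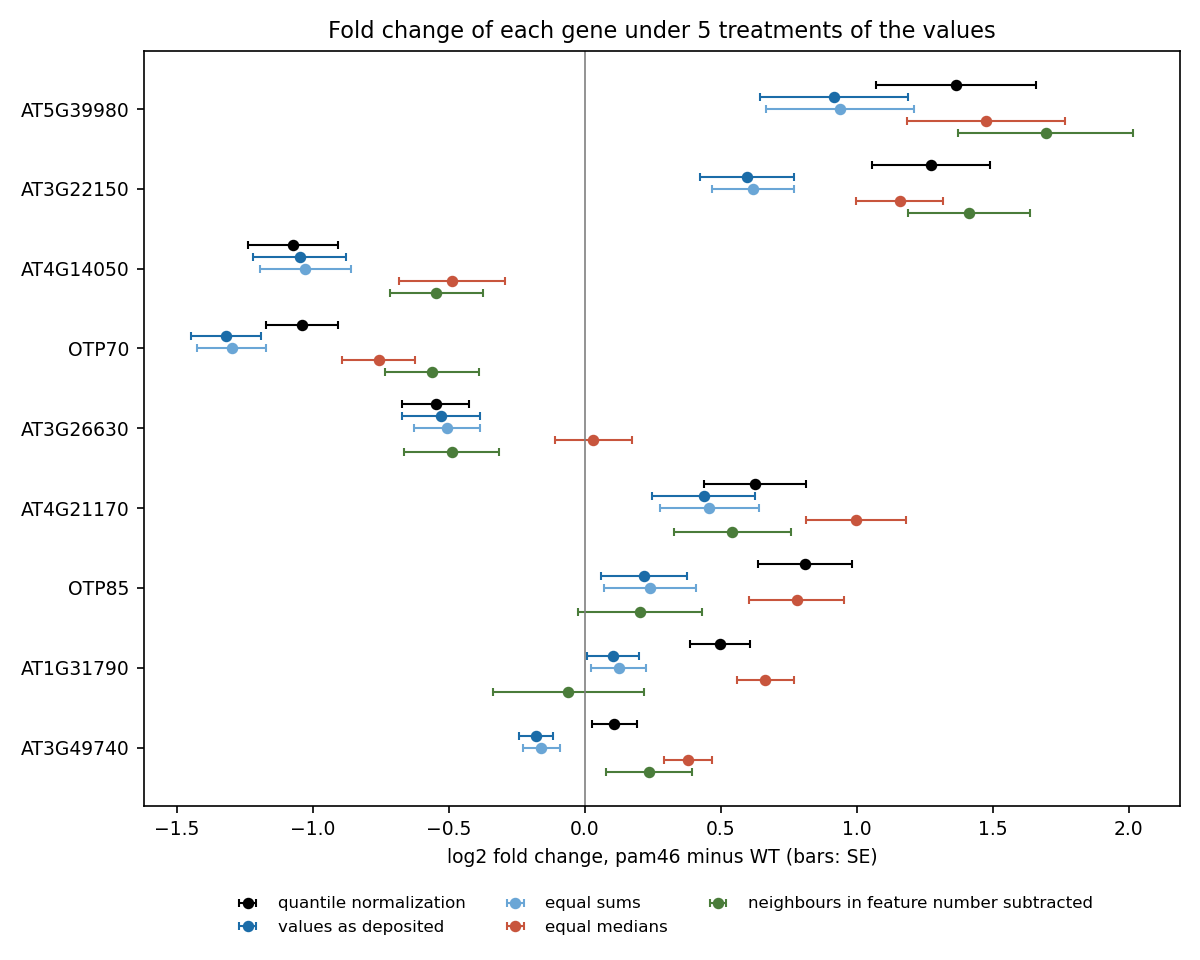
Log2 fold change (x axis, pam46 minus WT, bars are SE) of each PPR gene after quantile normalization, without scaling, after scaling to equal sums or to equal medians, and with the median of the 10 nearest feature numbers subtracted. AT5G39980, AT3G22150 and AT4G21170 stay above 0 and AT4G14050 and OTP70 below 0 by more than their SE in all 5, while AT3G26630 is at 0.03 with equal medians and AT1G31790 and AT3G49740 change sign.

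AT5G39980, AT3G22150, AT4G14050, OTP70, AT4G21170 and OTP85 kept their sign under all 23 alternatives. Blocks, averaged numbers and the dim-feature filter leave the fold change itself as it was, so these alternatives could not turn a sign. Changing the floor also left it unchanged, except for AT3G22150, at 1.16 with the floor at the 20th percentile. Leaving out 1 sample could not turn a sign either, because the groups of these genes did not overlap on the normalized scale. With neighbours subtracted OTP85 was above 0 by less than its SE, at 0.20 ± 0.23. On the deposited intensities 2 of the 9 had groups that did not overlap, both with pam46 below WT (23.6% of all features), and none had pam46 wholly above WT (5.38%). On the normalized scale 5 had pam46 wholly above WT (10.7%) and 3 had pam46 wholly below (12.5%), a count that the choice of members favours.

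The features of OTP85 and AT1G31790 lie 4 apart in feature number, at 4499 and 4503, and share 6 of their 10 nearest features. AT1G31790 is itself among the 10 nearest to OTP85. Mean deposited intensities of the neighbours ran from 0.0015 to 0.446 for OTP85 and from 0.0015 to 0.430 for AT1G31790. The median log2 intensity of the 10 features nearest in number differed between pam46 and WT by 0.61 for OTP85 and by 0.56 for AT1G31790, close to these genes' own differences of 0.81 and 0.50. With that median subtracted in each sample, OTP85 was at 0.20 ± 0.23 and AT1G31790 at -0.06 ± 0.28 (SE). The neighbours of AT4G14050 and OTP70 differed by -0.53 and -0.48, and after subtraction these 2 genes were at -0.55 ± 0.17 and -0.56 ± 0.17 (SE). The neighbours of AT5G39980 and AT3G22150 differed in the opposite direction from the genes, by -0.33 and -0.14, and the genes were then at 1.69 and 1.41. The array's layout is not given, the neighbours' own transcripts may differ between the groups, and the part of neighbouring features in these results was not tested.

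**Figure D3:**
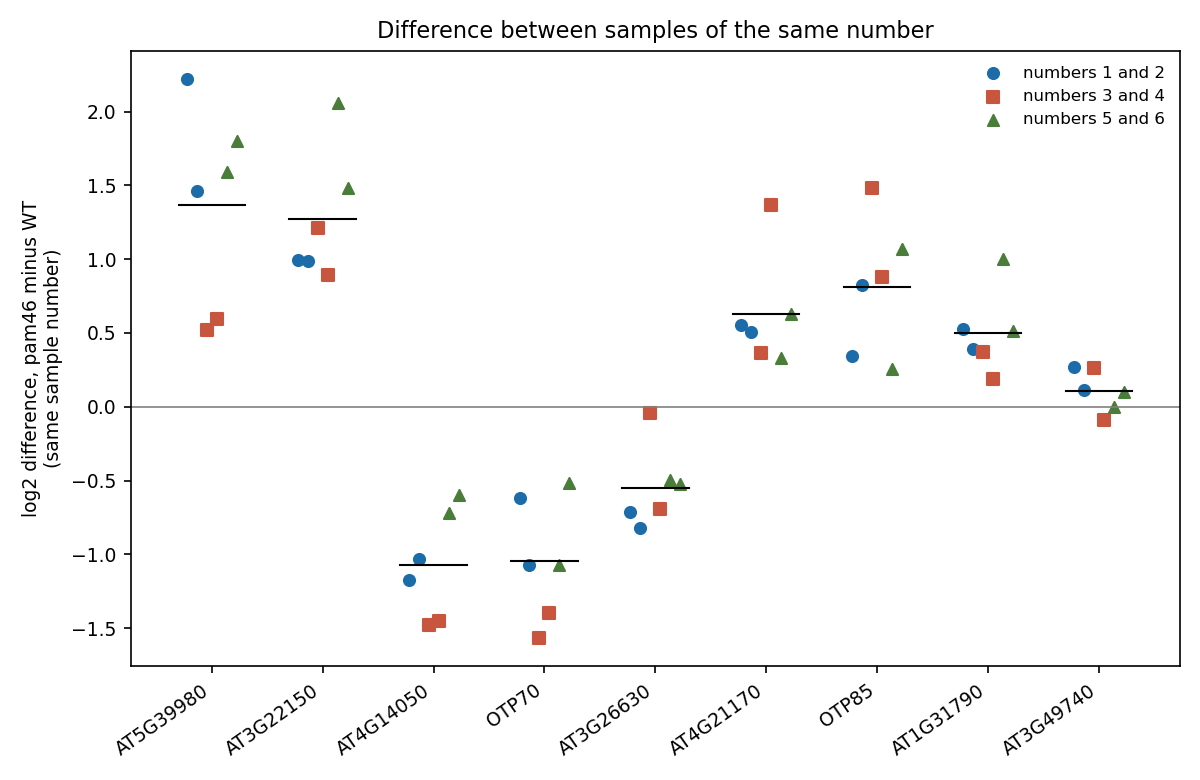
Difference in log2 normalized intensity (y axis, pam46 minus WT) between the samples of the same number for each of the 9 PPR genes. Symbols mark the pairs of consecutive numbers and the black line is the mean over 6 numbers; 8 genes have all 6 differences on 1 side of 0, and AT3G49740 lies on both sides.

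By sample number, 8 of the 9 genes had all 6 normalized differences of 1 sign, against 43.9% of all features, a count that the choice of members also favours. All 9 had 1 sign in the 3 pairs of consecutive numbers, as did 59.5% of all features. The size of the difference varied with the number. AT5G39980 differed by 1.84 in numbers 1 and 2, by 0.56 in numbers 3 and 4 and by 1.70 in numbers 5 and 6, each the log2 difference of the averages. AT4G14050 differed by -1.10, -1.47 and -0.66 and OTP70 by -0.85, -1.48 and -0.80 in the same order. For AT4G14050 and OTP70 the difference was thus largest in numbers 3 and 4, where that of AT5G39980 was smallest. AT3G22150 differed most in numbers 5 and 6, by 1.77, against 0.99 and 1.05 in the other pairs of numbers.

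**Figure D4:**
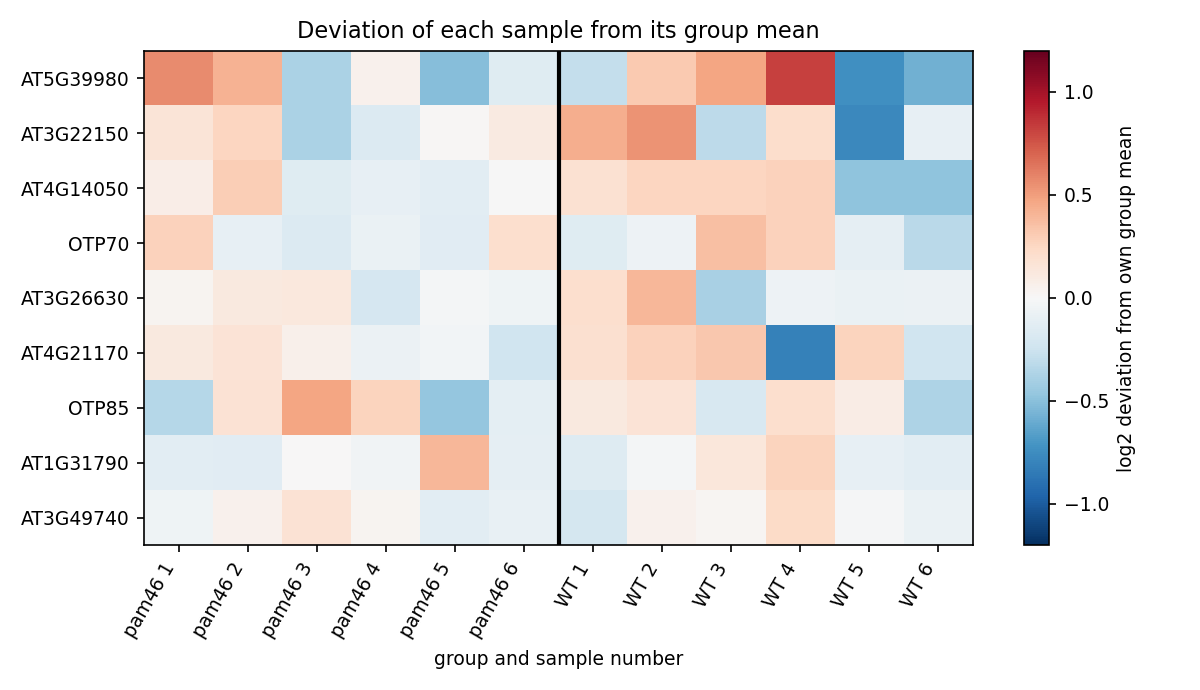
Deviation of log2 normalized intensity from the mean of the sample's own group (colour) for each PPR gene (rows) in the 6 pam46 and 6 WT samples (columns). WT samples 5 and 6 are low for AT5G39980 and AT4G14050, WT sample 4 is low for AT4G21170, and pam46 sample 5 is high for AT1G31790.

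Apart from the difference between groups, the members also varied from sample to sample within each group. In deviations from the group means, AT5G39980 and AT4G14050 went together most, with r = 0.83 over the 12 samples, followed by AT5G39980 and OTP70 with r = 0.73. The lowest was r = -0.40 between OTP70 and AT3G26630. Over the 36 pairs of members the median r was 0.13, against 0.0054 over all pairs of single-gene features. These are descriptions over samples whose consecutive numbers deviated together. Both members of the first pair of genes were low in WT samples 5 and 6, while their mean differences between pam46 and WT had opposite signs.

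Of 500 single-gene features outside the PPR genes with no sample at the floor, the one whose deviations were most like those of AT3G26630 was CUTA (r = 0.89 over 12 samples). For AT3G49740 it was ATATH8 (r = 0.88), and for AT5G39980 it was SBPASE (r = 0.87), which encodes the sedoheptulose bisphosphatase of the Calvin cycle. CUTA had a log2 fold change of -0.04 ± 0.09, ATATH8 of 1.23 ± 0.24 and SBPASE of 0.48 ± 0.17 (SE). Each r is the highest among the 500, and every member had such a best match, down to r = 0.74 for OTP85 with SWAP70. A link between the genes was not tested.

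Besides the 9 members, 2 PPR genes had a single-gene feature, searched by gene name and in a list of 65 PPR loci. CRR21, known for editing a site in plastid ndhD as OTP85 is, rose in pam46. Its deposited intensity was 0.422 at the lowest, 0.508 at the median and 0.669 at the highest in pam46, against 0.253, 0.407 and 0.520 in WT. Its log2 fold change was 0.80 ± 0.23 (SE, limma adjusted p = 0.0169), with an adjusted p of 0.168 when consecutive numbers were averaged and 0.105 on the values as deposited. With the sample number as a block on these averages the limma adjusted p was 0.0606, and with a random block for consecutive numbers 0.0363. Its 10 neighbours in feature number differed by 1.19, and with their median subtracted CRR21 was at -0.39. AT3G22690, known as YS1 and for editing of plastid rpoB, averaged 0.0816 ± 0.0271 in pam46 and 0.125 ± 0.0610 in WT (SD, n = 6 each). Its log2 fold change was 0.18 ± 0.32 (SE, limma adjusted p = 0.683).

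Of 66 other factors of organelle RNA metabolism listed by name, 3 had a single-gene feature, of which 1 fell, none rose and 2 did not pass, where 41.1% of all features were called and 21.6% called as lower. AT3G27550, known as CFM9, of the CRM domain family of intron splicing factors, fell in pam46. It was at 0.0807 at the lowest, 0.127 at the median and 0.153 at the highest in pam46, against 0.220, 0.327 and 0.447 in WT, so the groups did not overlap on the deposited scale (23.6% of all features lay wholly below), while after quantile normalization they did overlap. Its log2 fold change was -0.74 ± 0.18 (SE, limma adjusted p = 0.00681), with an adjusted p of 0.107 when consecutive numbers were averaged. With the sample number as a block on these averages the limma adjusted p was 0.0448, and with a random block for consecutive numbers 0.0286. The DEAD-box helicase gene AT5G19210 was at 0.70 ± 0.69 (SE, limma adjusted p = 0.461). WT sample 2 of AT5G19210 was set to the floor, so this fold change depends on it. With the floor at the 20th percentile AT5G19210 was at 0.46. Its deposited values ran from 0.0335 to 0.260 in pam46 and from 0.0208 to 0.271 in WT, lowest in samples 1 and 2 of both groups. With the sample number as a block it passed as higher (adjusted p = 0.00883), and with the block on averaged consecutive numbers it did not (0.0906). AT1G53260, of the MORF family of editing factors, was at 0.12 ± 0.18 (SE, limma adjusted p = 0.639).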

How the data were processed

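Total RNA of 6 pam46 and 6 WT samples was measured on an array of 3439 features, of which the platform annotation names 1 gene for 692, several for 870 and none for 1877. The authors' deposited values are intensities on a linear scale, found from the values themselves; the sources used here do not state the array's background correction, normalization or tools. Of the 692, 690 were matched to the RefSeq table of assembly TAIR10.1, used for names only. Of a gene with 2 features the brighter was kept, leaving 3438. No coordinates are given, because the build of the annotation is not stated.

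Intensities were quantile-normalized, since medians differed up to 1.71-fold. Values below the 5th percentile of positive values (0.0278) were set to it, and log2 was taken. Models were fitted in R 4.3.3 using limma 3.58.1, with two-sided moderated tests (lmFit, eBayes) and Benjamini-Hochberg adjustment over all 3438. They were run on simulated data in which every sample varied independently. That simulation therefore says nothing on calls among samples that deviate together. No label says that samples were separate plants or cultures, so p-values reflect the spread among these samples alone, which may be technical. Precision is limited by the number of arrays. In deviations from group means, equal numbers in pam46 and WT correlated at r = 0.24 to 0.57, all above the 0.1 set for pairing. The labels share the numbers between groups but state no pairing. The main fit left the sample number out, and the replicate block was run as an alternative. Consecutive numbers within a group correlated at 0.26 to 0.67.

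The members and lists were chosen with earlier results of these data known. Named were all 9 members, every measured locus of 2 lists (other PPR genes, other organelle RNA factors) and the features most like 3 members. Of 20 tissue marker genes 1 was measured, so the tissue was not checked. Alternatives covered scaling, floor, a dim-feature filter, the replicate block, averaged or blocked consecutive numbers, neighbouring features and each sample left out.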

Additional observations from a re-analysis of the deposited data

Results flagged for a closer look

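In each group of 6, the gap between the most extreme sample and its nearest neighbour was compared with the group's range (Dixon's 95% limit) for the 9 members and the 5 other named organelle RNA genes. This marked 1 of 28 groups, and chance marks about 1 in 20. It was AT1G31790 in pam46 sample 5, at -0.53 log2 normalized intensity (0.622 as deposited), with the other pam46 samples at -1.07 to -0.93. Without this sample the log2 fold change of AT1G31790, pam46 minus WT, was 0.42.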

How the results depend on the processing

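The count of 1413 called genes or features was 587 with consecutive numbers averaged, 693 with these averages and a replicate block, and 922 with a random block for consecutive numbers, and 1315 to 1390 with 1 sample left out; the first pair have fewer samples. The replicate block on all 12 samples gave 1658 calls. It changed no call among the members and the other named organelle RNA genes except AT5G19210. With the averages and the block together 1 of the 9 members was called, AT3G22150 (20.2% of all features were called). Several signs turned, for which the cause was not tested. Under equal medians AT3G26630 was at 0.032. On the values as deposited AT3G49740 was at -0.18, AT1G53260 at -0.48 and AT3G22690 at -0.47. With equal sums these were -0.16, -0.46 and -0.45. With neighbours in feature number subtracted AT1G31790 was at -0.060, AT1G53260 at -0.35, AT5G19210 at -0.089 and CRR21 at -0.39. With 1 sample left out AT1G53260 ran from -0.0044 to 0.20 and AT3G22690 from -0.045 to 0.33, while no member changed sign.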
